A study of Brassica napus with 6 samples.

Results

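The miRNA families miR399, miR827 and miR2111, known for their response to phosphate, were followed in young siliques of rapeseed (Brassica napus). Their members were found by family number among the known miRNAs that the authors counted, which gave 7 names of 69. These were ath-miR399b and ath-miR399f, ghr-miR827a, and ath-miR2111a-5p, bna-miR2111c, bra-miR2111b-3p and bna-miR2111b-3p of miR2111. The prefixes are the usual codes for the species under which each sequence is listed (thale cress, cotton, rapeseed and Brassica rapa). All reads came from rapeseed.

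The study compared a line with short siliques (SS) and a line with long siliques (LS), the silique being the seed pod. Both were backcross progenies of 1 cross, between parents named 8008 and 4942, and were grown in the field with no treatment. The tissue was pistils and siliques at 0 to 7 days after pollination. About 12 plants were used for each stage, and the labels speak of repeated experiments. Small RNAs of 18 to 30 nt were sequenced in 2 SS and 2 LS libraries, and cut mRNAs (the degradome) in 1 SS and 1 LS library. Each line is a population, so its libraries pool plants. No other allele or agent is named in the labels, and no record of the soil phosphate supply was used here. The tissue label was not checked against markers, because the count tables hold miRNAs alone.

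In Arabidopsis, phosphate shortage raises all 3 families. miR399 acts on the mRNA of PHO2, a ubiquitin-conjugating enzyme that limits phosphate uptake and transport to the shoot, and some of it travels from shoot to root in the phloem. miR827 acts on NLA, a ubiquitin ligase that removes phosphate transporters from the membrane. The 5p arm of miR2111 acts on mRNAs of F-box proteins with kelch repeats, and in legumes miR2111 also moves from shoot to root and acts on a regulator of nodule number. The 3p arm is the opposite strand of the same hairpin.

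Sequences are shown for the members and target sites that the degradome tables print, since the differences between miR2111 members and their pairing with targets can be read from them. They are given 5′ to 3′ in DNA letters. In each miRNA the capitals mark the seed (bases 2 to 8), and in each target site the bases opposite the seed.
bna-miR2111d: tAATCTGCatcctgaggttta
bna-miR2111c: tAATCTGCatcctggggttta
Site in BnaA06g32400D: cagacctcaggatGCAGATTa
Site in BnaC07g48940D: cagacctcaggatGCAGATTa
Site in BnaC02g34990D: tacaacaccgggatGCAGAGTg

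Both miRNAs have 21 bases and the same seed. They differ at 1 position, A15G, where the base of bna-miR2111d comes first and positions count from the 5′ end. bna-miR2111c carries no arm in its name. It was taken as a 5p member here, because it is the strand that the authors' tables pair with target mRNAs. bna-miR2111d is listed in the degradome tables and has no line in the count tables used here. The sequences of the other members are not printed in the tables used here.

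The library totals were 6046506 and 6403019 reads in SS and 6409382 and 6739286 reads in LS. All values in RPM below are reads per 1000000 reads of these totals. Known miRNAs as a whole held 6.51% and 6.50% of the totals in SS and 4.82% and 4.82% in LS. RPM ratios of SS over LS include this general difference, which is not particular to the members. The 7 names together held 282 and 278 reads in the SS libraries and 152 and 176 in the LS libraries. This was 0.0717% and 0.0668% of the known miRNA reads in SS (Wilson 95% intervals 0.0638% to 0.0805% and 0.0594% to 0.0752%), and 0.0492% and 0.0542% in LS (0.0419% to 0.0576% and 0.0467% to 0.0628%). They were thus scarce, and intervals on such counts cover counting error only. Between the LS libraries the counts of 55 miRNAs differed within sampling noise (chi-square over its degrees of freedom 0.905, p = 0.675). They were therefore counted as 1 sample, and LS levels are both libraries together with a 95% Poisson interval. Between the SS libraries the same measure was 1.61, which is more than sampling noise (chi-square p = 0.00269 over 55 miRNAs). SS levels are the mean ± SD of both libraries.

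ghr-miR827a was the most abundant of the 7 in both lines, and both SS libraries stood above both LS libraries. It had 31.4 and 28.9 RPM in the SS libraries (190 and 185 reads), against 13.6 and 12.9 RPM in the LS libraries (87 and 87 reads). Its level was 30.2 ± 1.79 RPM in SS (SD, n = 2) and 13.2 RPM in LS (11.3 to 15.4), a ratio of 2.28 with an exact counting interval of 1.90 to 2.74. On the TMM scale, which assumes that most miRNAs do not differ between libraries, it rose in SS by 0.89 ± 0.13 (log2, SE, edgeR adjusted p = 5.72e-10). The call held when the LS libraries were summed into 1 sample, at 0.88 (edgeR adjusted p = 0.00011) and with DESeq2 (DESeq2 adjusted p = 0.000709). The log2 fold change was between 0.86 and 0.95 with any 1 library left out. The main fit called 27 of the 52 tested miRNAs (51.9%) in either direction, so the assumption behind the TMM scale may not hold. In whole tissue, fewer cells of a type and less RNA per cell cannot be told apart, here and in all results below.

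**Figure D1:**
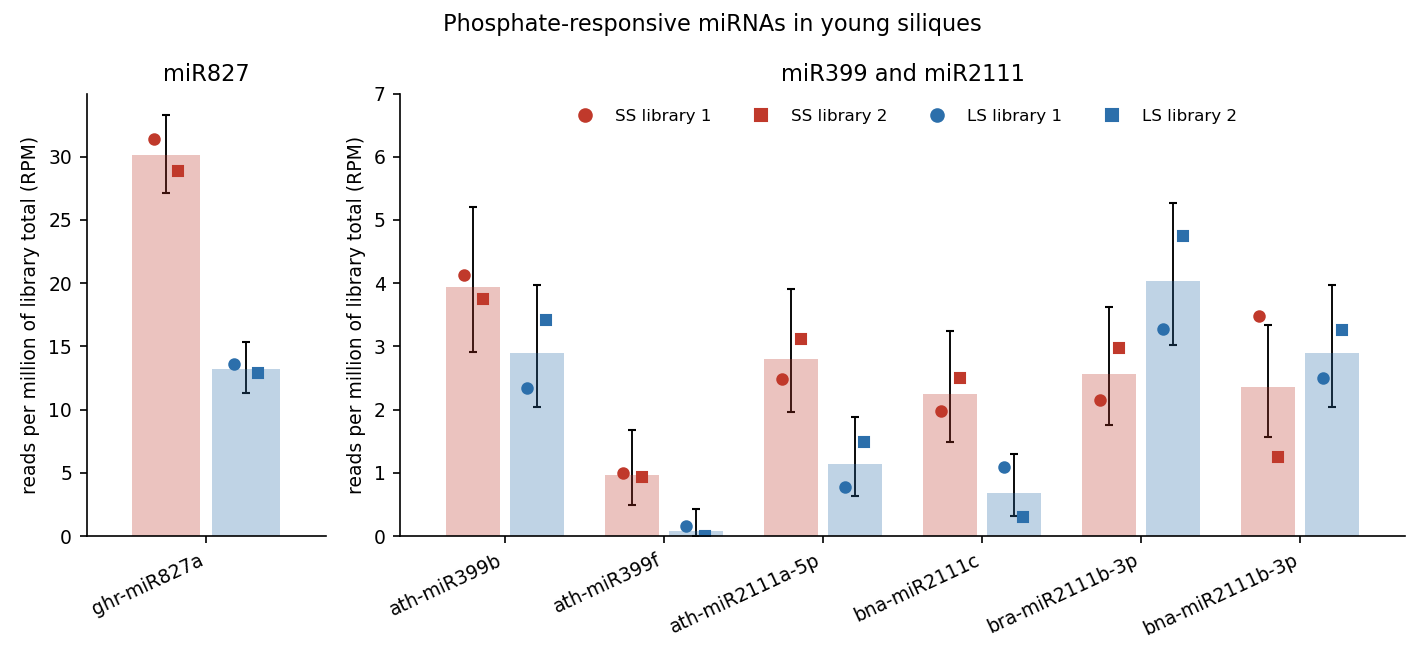
Level of each counted member of miR827 (left) and of miR399 and miR2111 (right), in reads per 1000000 of the library total, with SS in red left of LS in blue. Points are single libraries (circles library 1, squares library 2), bars the SS mean and the LS libraries together, and lines 95% Poisson intervals of the summed counts. ghr-miR827a sits at 28.9 RPM or more in SS and at 13.6 RPM or less in LS, and bna-miR2111b-3p is the 1 member whose single SS and LS libraries overlap in level.

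miR399 had a pair of members, neither past the test. ath-miR399b had 4.13 and 3.75 RPM in the SS libraries (25 and 24 reads), against 2.34 and 3.41 RPM in the LS libraries (15 and 23 reads). The SS libraries were both above the LS libraries, with little between SS library 2 and LS library 2. On the TMM scale its log2 fold change was 0.15 ± 0.34 (SE, edgeR adjusted p = 0.769), and it was -0.093 without LS library 1. Its RPM ratio was 1.36, with a counting interval of 0.873 to 2.14.

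ath-miR399f had 6 reads in each SS library, against 1 read in LS library 1 and 0 in LS library 2. No library reached the minimum of 10 reads, so it was not in the test. Its RPM ratio was 12.7 with an exact counting interval of 1.88 to 542. The authors' deposited table lists a log2 fold change of 6.55 for the pair of libraries numbered 2, where 0.01 RPM stands in place of the 0 in LS, and marks it with 1 asterisk. For the pair numbered 1 it lists 2.67 without a mark. With no filter on low counts, ath-miR399f was past the test (edgeR adjusted p = 0.00765). Summed over both names, miR399 had 31 and 30 reads in SS and 16 and 23 in LS, a log2 fold change of 0.35 ± 0.30 on the TMM scale (SE, edgeR adjusted p = 0.352). Scaled by the authors' library totals, the sum passed at 0.72 (edgeR adjusted p = 0.019).

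miR2111 was counted on both arms, and the arm sums went opposite ways. For the 3p sum there was little between SS library 1 (5.62 RPM) and LS library 1 (5.77 RPM). ath-miR2111a-5p had 2.48 and 3.12 RPM in the SS libraries (15 and 20 reads), against 0.78 and 1.48 RPM in the LS libraries (5 and 10 reads). Both SS libraries were above both LS libraries, but its log2 fold change of 0.99 ± 0.45 on the TMM scale did not pass (SE, edgeR adjusted p = 0.0548). Scaled by the authors' library totals it passed, at 1.29 (edgeR adjusted p = 0.00763). Taken alone, its SS libraries met the minimum of 10 reads in 2 libraries and its LS libraries did not. Its entry to the test thus leaned on SS, where it was higher.

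bna-miR2111c, printed above, had 1.98 and 2.50 RPM in the SS libraries (12 and 16 reads), against 1.09 and 0.297 RPM in the LS libraries (7 and 2 reads). Both SS libraries were again above both LS libraries. It met the minimum of 10 reads through its SS libraries alone, so it could enter the test only because it was high there. On the TMM scale it rose by 1.40 ± 0.55 (log2, SE, edgeR adjusted p = 0.0181). The call was lost without LS library 2, where it stood at 0.74 (edgeR adjusted p = 0.364), and it stood at 2.56 without LS library 1. Without either SS library it fell short of the minimum of 10 reads in 2 libraries and could not be tested.

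The 3p names ran the other way. bra-miR2111b-3p had 2.15 and 2.97 RPM in the SS libraries (13 and 19 reads), against 3.28 and 4.75 RPM in the LS libraries (21 and 32 reads). Both SS libraries were below both LS libraries, and it fell by 0.94 ± 0.35 on the log2 TMM scale (SE, edgeR adjusted p = 0.0166). It did not pass when the LS libraries were summed into 1 sample, at -0.95 (edgeR adjusted p = 0.0612), or when scaled by the authors' library totals, at -0.65. The call also ended without LS library 2, at -0.64, and without SS library 1, at -0.70.

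bna-miR2111b-3p, the 3p name listed for rapeseed itself, had 3.47 and 1.25 RPM in the SS libraries (21 and 8 reads), against 2.50 and 3.26 RPM in the LS libraries (16 and 22 reads). SS library 1 was above both LS libraries and SS library 2 below both, so the lines overlapped. Among the 7 names this gap between SS libraries was the one farthest from sampling noise (chi-square of 6.60 for this name, out of 9.02 over the 7 names). Its log2 fold change of -0.60 ± 0.38 on the TMM scale did not pass (SE, edgeR adjusted p = 0.19). Without SS library 1 it stood at -1.45, and without SS library 2 at -0.029. Each of these fits kept a single SS library. Without SS library 1, bna-miR2111b-3p met the minimum of reads through its LS libraries alone, where it was high. No call is therefore drawn from that fit. The 3p names share arm and letter and may share reads, which the sum of both does not depend on.

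With members of an arm summed, the 5p arm had 27 and 36 reads in the SS libraries, against 12 and 12 in the LS libraries. This was 4.47 and 5.62 RPM in SS and 1.87 and 1.78 RPM in LS. On the TMM scale of family sums, the 5p sum rose by 1.09 ± 0.35 (log2, SE, edgeR adjusted p = 0.00152). The 3p arm had 34 and 27 reads in SS and 37 and 54 in LS, or 5.62 and 4.22 RPM in SS and 5.77 and 8.01 RPM in LS. The 3p sum fell by 0.87 ± 0.24 (SE, edgeR adjusted p = 0.000427). Of the 33 sums tested, 11 were higher in SS (33.3%) and 10 lower (30.3%). Both calls held when the LS libraries were summed into 1 sample (edgeR adjusted p = 0.00149 for 5p and 0.00606 for 3p). The 3p call ended with the authors' library totals at -0.50 (edgeR adjusted p = 0.0809) and without LS library 2 at -0.59, and DESeq2 called neither sum (DESeq2 adjusted p = 0.854 for 5p and 0.573 for 3p).

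The 3p arm therefore held a smaller part of the miR2111 reads in SS. Its share was 55.7% and 42.9% in the SS libraries (exact 95% intervals 42.4% to 68.5% and 30.5% to 56.0%), against 75.5% and 81.8% in the LS libraries (61.1% to 86.7% and 70.4% to 90.2%). Both SS libraries were below both LS libraries, with a difference of -29.4 percentage points between the line means, SS minus LS. An exact two-sided permutation test over the libraries gave p = 0.333, the smallest that 2 against 2 libraries allow. Without bna-miR2111c the shares were 69.4% and 57.4% in SS and 88.1% and 84.4% in LS.

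A share within a library does not depend on how libraries are scaled. The difference between the arms' log2 fold changes, 5p minus 3p, was 1.96 with each of the 4 scalings tried. In a test added after the data were seen, edgeR's diffSpliceDGE compared the arms of the 4 families counted on both with enough reads. miR2111 passed (edgeR adjusted p = 0.000674), and 2 of the 4 families did (50%), the other being miR160. When the LS libraries were summed into 1 sample miR2111 did not pass (edgeR adjusted p = 0.0704), and 1 of 4 did (25%). It also did not pass without LS library 1, LS library 2 or SS library 2 (edgeR adjusted p = 0.0899, 0.23 and 0.114).

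**Figure D2:**
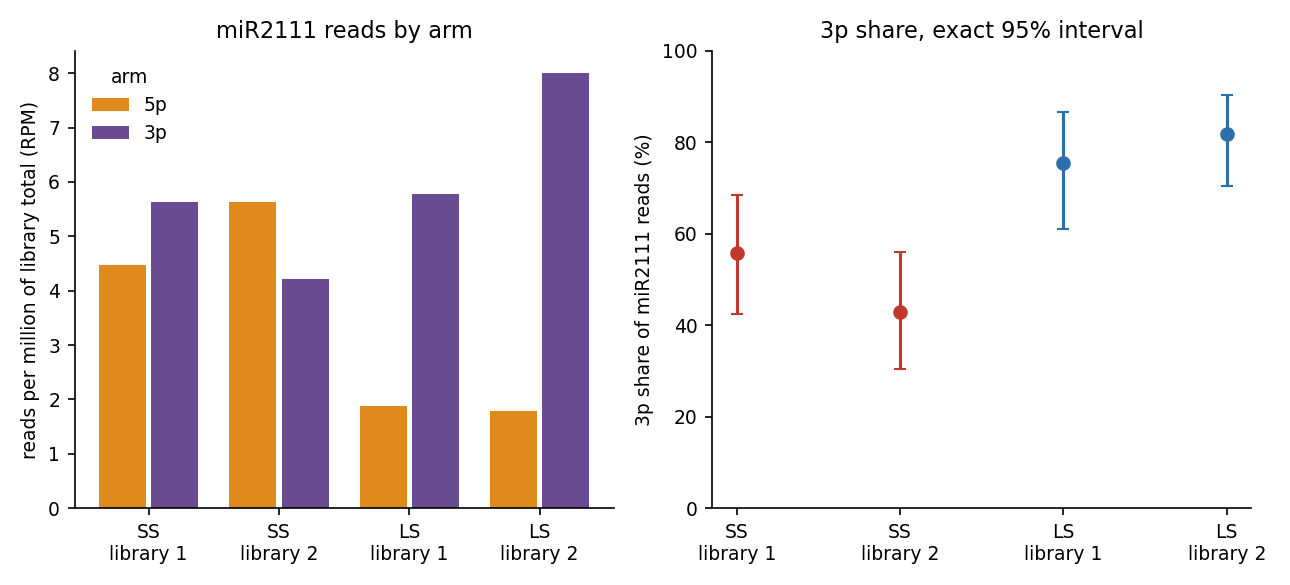
Left, miR2111 reads of each arm in every library, in reads per 1000000 of the library total (5p orange, the sum of ath-miR2111a-5p and bna-miR2111c; 3p purple, the sum of bra-miR2111b-3p and bna-miR2111b-3p). Right, the 3p share of these reads in percent with its exact 95% interval, SS red and LS blue. The 3p share is at most 55.7% in the SS libraries and at least 75.5% in the LS libraries.

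The sum of both arms showed little of this. It had 61 and 63 reads in the SS libraries, against 49 and 66 in the LS libraries, and its RPM ratio was 1.14 with an exact counting interval of 0.876 to 1.48. The log2 fold change of the sum was -0.18 ± 0.19 on the TMM scale (SE, edgeR adjusted p = 0.448), and 0.19 with the authors' library totals. The sum of miR827, which is ghr-miR827a alone, stood at 0.81 ± 0.13 (SE, edgeR adjusted p = 2.11e-07). Among the 32 families tested, 10 were higher in SS (31.2%) and 8 lower (25%).

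Set against all known miRNAs, the members did not stand apart by count. Of the 6 members tested, 2 were higher in SS, ghr-miR827a and bna-miR2111c, against 18 of all 52 tested miRNAs (34.6%), and 1 was lower, bra-miR2111b-3p, against 9 of 52 (17.3%). bna-miR2111c entered the test through its SS libraries alone, where it was high, so the count of 2 higher supports nothing about the members. In RPM, both SS libraries were above both LS libraries for 5 of the 7 names, against 69.6% of the 69 listed, and below for 1, against 11.6%. The median log2 fold change was 0.52 over the tested members and 0.12 over all tested miRNAs on the TMM scale. The members' median includes bna-miR2111c, as do the counts of higher members with the authors' library totals and with LS summed. They therefore support nothing about the members either. With the authors' library totals the median of all tested moved to 0.41. On that scale 3 members were higher, with ath-miR2111a-5p in addition, and none was lower, against 63.5% and 5.77% of all tested. When the LS libraries were summed into 1 sample, 2 members were higher and none lower, against 30.8% and 13.5%. DESeq2 called ghr-miR827a alone, against 38.5% of all tested in either direction. It gave the other tested members no adjusted p, so they were not judged, and the 38.5% counts such names as not called.

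**Figure D3:**
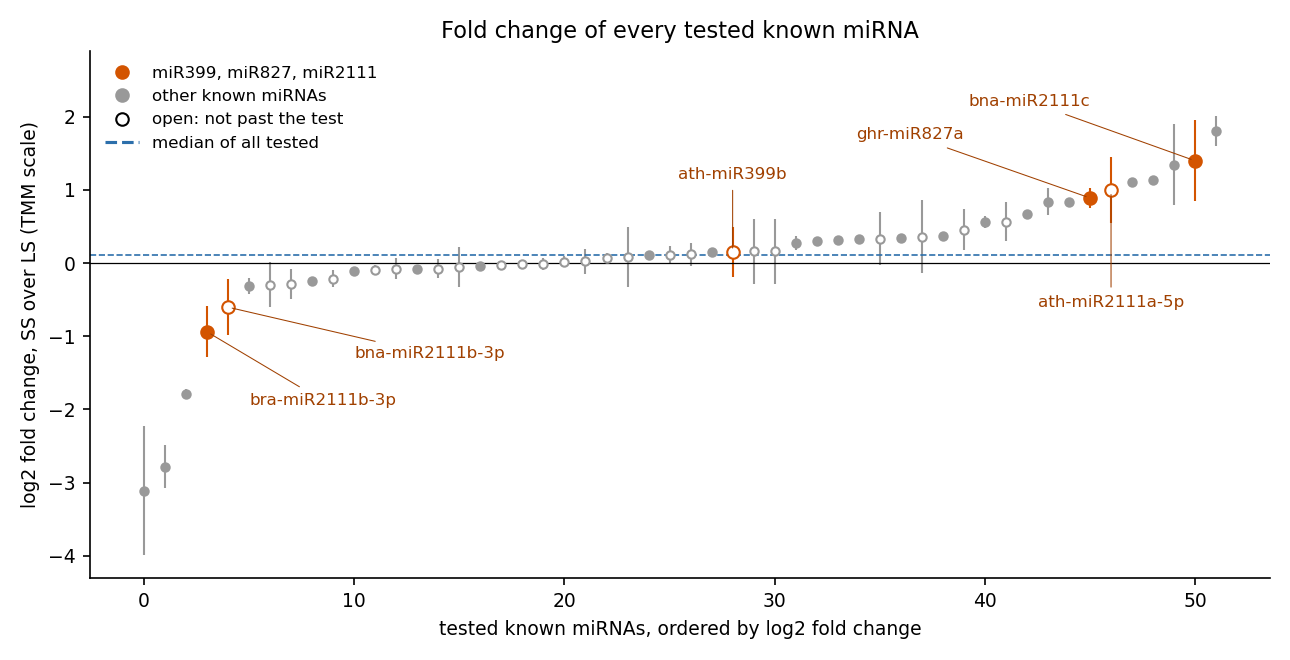
Log2 fold change of SS over LS on the TMM scale for the 52 tested known miRNAs, in ascending order, with SE. The members of miR399, miR827 and miR2111 are orange and named, filled points are past the test, and the dashed line is the median of all tested, 0.12. The 3p names of miR2111 lie near the low end, at -0.94 and -0.60, and the 5p names near the high end, at 1.40 and 0.99.

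By level, the order in SS was ghr-miR827a (30.2 RPM), ath-miR399b (3.94), ath-miR2111a-5p (2.80), bra-miR2111b-3p (2.56), bna-miR2111b-3p (2.36), bna-miR2111c (2.24) and ath-miR399f (0.965). The Poisson intervals of the 5 names between the first and the last overlapped in SS, so their order is not fixed by these counts. In LS the order was ghr-miR827a (13.2 RPM), bra-miR2111b-3p (4.03), ath-miR399b and bna-miR2111b-3p (2.89 each), ath-miR2111a-5p (1.14), bna-miR2111c (0.684) and ath-miR399f (0.0761). There the intervals of both 5p names lay below those of both 3p names. ghr-miR827a ranked 28 of 69 by mean RPM, and the other 6 between 41 and 60.

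Likeness to other miRNAs was measured as the distance between log2 profiles over the 4 libraries, each centred on its mean, among 46 tested miRNAs outside the families. Nearest to ghr-miR827a were ath-miR164a (distance 0.101), ath-miR156a-5p (0.215) and ath-miR157a-5p (0.263). Nearest to ath-miR2111a-5p were ahy-miR156c (0.0728), bna-miR6033 (0.468) and ath-miR164a (0.56), and nearest to bna-miR2111c were ath-miR408-5p (0.881), ath-miR157a-5p (0.916) and ath-miR164a (0.995). ath-miR399b lay near ath-miR393b-3p (0.214), ath-miR169a-5p (0.226) and ath-miR169b-5p (0.335). No other miRNA came closer than 0.684 to bra-miR2111b-3p (ath-miR171a-3p) or 0.849 to bna-miR2111b-3p (bna-miR169m). With 4 libraries, of which the LS pair counts as 1 sample, these distances are a description. They mix the difference between the lines with scatter between libraries of a line. For example, bna-miR2111c and ath-miR408-5p lay 0.881 apart with log2 fold changes of 1.40 and 1.13.

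Other families tied to mineral nutrition were listed for comparison, 9 in all, of which 5 were counted, under 12 names. Of the 6 names with enough reads, 1 was higher in SS, 1 lower and 4 not past the test. miR395, which acts on sulfate assimilation genes and a sulfate transporter, had at most 3 reads in any library under either of its names and was not tested. Of the copper families, ath-miR408-5p had 470 and 484 RPM in SS and 180 and 175 RPM in LS and rose by 1.13 on the log2 TMM scale. aly-miR408-5p, with 17 and 15 reads in SS and 13 and 13 in LS, did not pass, at 0.081 (edgeR adjusted p = 0.881). bol-miR398a-5p, with 1 and 2 reads in SS and 12 and 12 in LS, was past the test as lower. bol-miR398a-5p met the minimum of 10 reads through its LS libraries alone, where it was high, so the count of 1 lower rests on the filter too. Of miR169, which acts on NF-YA transcription factors and responds to nitrogen and phosphate supply in Arabidopsis, none of 3 tested names passed. miR778, a further phosphate-responsive family of Arabidopsis, was not among the names counted.

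The degradome was read for the mRNAs cut at sites of these miRNAs. It listed targets of miR2111 alone: in neither line did miR399 or miR827 have an entry. The entries of these families numbered 4 of 382 entries of known miRNAs in SS (1.05%) and 2 of 95 in LS (2.11%). Each line had 1 library with no replicate, so no test was made, and an entry that is missing does not show that an mRNA was not cut.

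BnaA06g32400D was listed in both lines, at position 268 of the mRNA, for bna-miR2111d and for bna-miR2111c. The alignment score was 1.5 for bna-miR2111d and 2 for bna-miR2111c in either line, lower scores meaning, as is usual, closer pairing. In the authors' pairing, bna-miR2111d matched its site at 19 of 21 bases, with a G:U pair at base 19 and a mismatch at base 21. bna-miR2111c matched it at 18 bases, with a second G:U pair at base 15, where these miRNAs differ. The seed was paired throughout, 7 of 7 bases. All 4 of these entries were in category 0, which in the usual scheme marks the strongest cleavage signal on the mRNA, with a p-value listed as 0. Category 0 was common, with 267 of the 382 known entries in SS and 91 of the 95 in LS.

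SS held 2 further targets, both for bna-miR2111c. BnaC07g48940D was listed at the same position, 268, with a site identical letter for letter to that of BnaA06g32400D, a score of 2, category 4 and p-value 0.002. By its identifier it lies on a C-subgenome chromosome, C07, and BnaA06g32400D on A06 of the A subgenome. Category 4, which marks the weakest evidence in the usual scheme, held 5 of the 382 known entries in SS. bna-miR2111d, which pairs with these letters more closely, had no entry there. BnaC02g34990D was listed at position 1307 with a score of 4, category 1 and p-value 0.048. Its site paired with 6 of 7 seed bases and 17 bases in all. It had G:U pairs at bases 1 and 13, mismatches opposite bases 3 and 16, and 1 gap.

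The p-value of 0.048 was the highest among the 382 known entries in SS. No other miRNA, known or predicted, was listed at any of these positions apart from the pair of miR2111 names at BnaA06g32400D. The LS table stops inside an entry at BnaA09g07450D, and targets follow in order of identifier. BnaC02g34990D and BnaC07g48940D come after that end, so LS could not have shown them. Over the range that both tables cover, each line held the same 2 entries, at BnaA06g32400D. The 3 targets had no match in the gene table used here, so they carry identifiers without a name or function. The tables hold no read numbers at the sites, so the extent of cleavage in SS and LS could not be compared.

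In the authors' deposited tables, ghr-miR827a was marked with 2 asterisks in both numbered pairs of libraries, at log2 fold changes of 1.21 and 1.16. ath-miR2111a-5p was marked with 1 asterisk in pair 1 (1.67) and not in pair 2 (1.07). bna-miR2111c was marked in pair 2 with 2 asterisks (3.07) and not in pair 1 (0.86). bna-miR2111b-3p was unmarked at 0.48 in pair 1 and marked at -1.39 in pair 2, and bra-miR2111b-3p was unmarked at -0.61 and -0.68. ghr-miR827a was thus the 1 member that the authors' tables marked in both pairs.

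**Figure D4:**
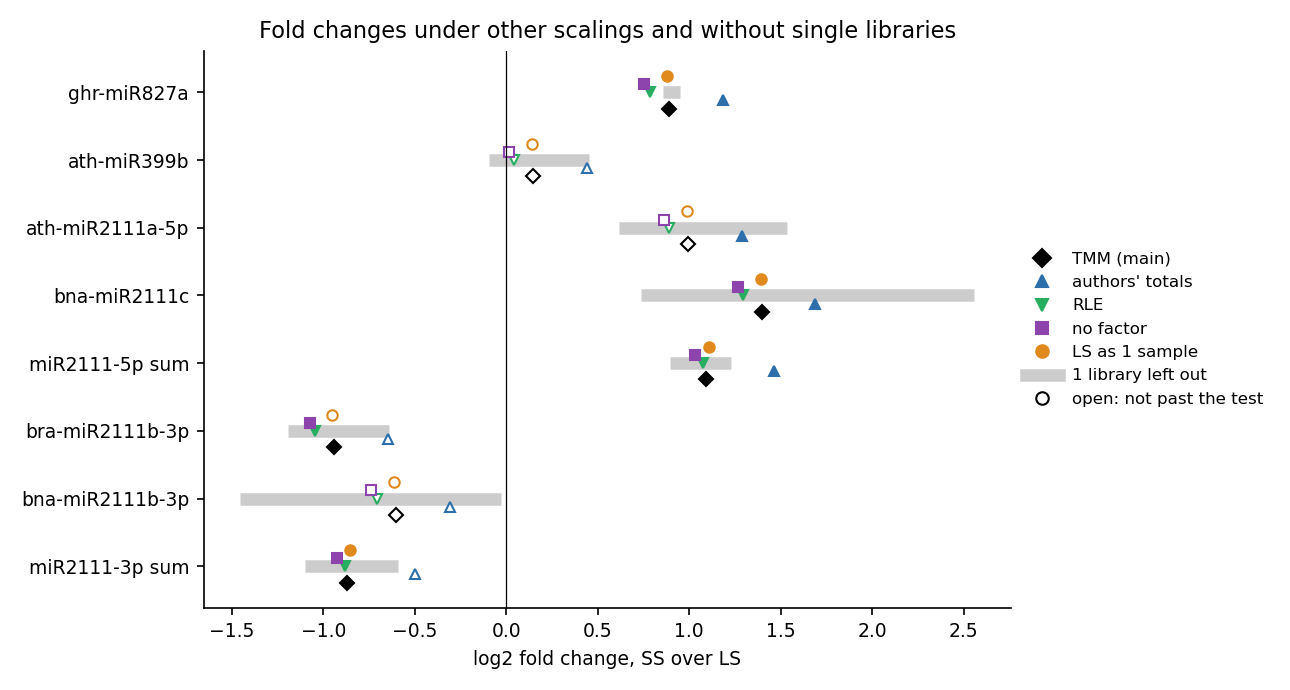
Log2 fold change of SS over LS for each tested member and for the sum of each miR2111 arm, under 4 scalings and with the LS libraries as 1 sample. Filled symbols are past the test (edgeR adjusted p of 0.05 or less), and grey bars span the fits that left out 1 library (for bna-miR2111c, an LS library only). ghr-miR827a and the 5p sum are filled throughout, and the 3p sum lies below 0 under each setting drawn but is open with the authors' library totals, at -0.50.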

How the data were processed

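Small RNA libraries (2 SS, 2 LS) and degradome libraries (1 SS, 1 LS) were analysed from the authors' tables. Per the file headers, the deposited counts are reads per known miRNA beside the library total. The deposited RPM values, whose header names no formula, matched counts per 1000000 reads of that total when recomputed (0.01 where the count is 0). The log2 fold changes and the p-values in the authors' deposited tables compare 1 SS with 1 LS library by an unnamed test. No source used here names the aligner or the miRNA database. Each degradome entry deposited by the authors holds a position, a score, a category, a p-value and the alignment. The meaning of the categories is not stated.

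The main test was edgeR 4.0.16 in R 4.3.3 (quasi-likelihood, TMM, two-sided) on the 52 known miRNAs that reached 10 counts in 2 libraries or more, with Benjamini-Hochberg adjustment over them and a threshold of 0.05. The same test was run on family sums. It kept the LS libraries as separate samples although they count as 1, so its p-values may be too small, and fits with them summed are given where a call changes. The common dispersion was 9.77e-05, so p-values rest largely on counting error. Nothing ties libraries to separate plants, so the spread that p-values measure may be technical. An SE is the log2 fold change over the square root of F, raised to counting error where smaller. DESeq2 1.42.0 (local fit), limma-voom (limma 3.58.1) and other scalings and filters were alternatives. The script was tested on simulated data with independent libraries, which does not give the error rate in these data. Every counted name of the 3 families is reported. The members and lists were chosen with earlier results of these data known. The tables of predicted miRNAs were not used here.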

Additional observations from a re-analysis of the deposited data

How the results depend on the processing

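ghr-miR827a and its family kept direction and call in every alternative run. The members past the test numbered 3 in the main analysis. With DESeq2 the number was 1 (ghr-miR827a), and the other 5 tested members were given no adjusted p. It was also 1 with 50 counts in 2 libraries, where ghr-miR827a was the 1 member left. bna-miR2111c could not be tested without SS library 1 or without SS library 2. With the authors' library totals ath-miR2111a-5p (1.29) and miR399 (0.72) gained a call, bra-miR2111b-3p (-0.65) and the 3p sum (-0.50) lost it, and the miR2111 sum turned to 0.19. With limma-voom ath-miR2111a-5p gained one (1.01). With the LS libraries as 1 sample bra-miR2111b-3p (-0.95) lost its call, as did the arm difference (1.96, and 1.79 without bna-miR2111c). With DESeq2 the 5p sum (1.08) and the 3p sum (-0.88) lost theirs. The cause was not tested. All known miRNAs called ranged from 20 to 25 with 1 library left out, against 27.

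With 1 library left out, log2 fold changes ran from 0.62 to 1.53 for ath-miR2111a-5p, -0.093 to 0.45 for ath-miR399b, 0.74 to 2.56 for bna-miR2111c (LS libraries left out only), -1.19 to -0.64 for bra-miR2111b-3p and -1.45 to -0.029 for bna-miR2111b-3p. They ran from 0.89 to 1.23 for the 5p sum, -1.10 to -0.59 for the 3p sum, and 1.58 to 2.33 for the arm difference. The difference in 3p share ran from -35.8 to -22.9 percentage points.

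The replicate numbers are not stated to mark a shared plant or day. Deviations of same-numbered libraries from their line means correlated only weakly, and negatively (correlation of -0.25 over 52 miRNAs). With the replicate number as a block, bna-miR2111c (1.40, edgeR adjusted p = 0.177) and the arm difference (1.96, edgeR adjusted p = 0.135) had no call. With the pairing crossed, a check added after the data were seen, bna-miR2111c (1.38, edgeR adjusted p = 0.0748) had none either, and 2 members passed in each block fit. Of the SS degradome entries, 4 in all, 2 lie in the range the LS table covers. Depth limits all members but ghr-miR827a: the miR399 names and the 5p arm of miR2111 had at most 36 reads in any library.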
